A study of Homo sapiens with 16 samples.

Results

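Genes of the DNA replication fork are described here across polysome-associated and cytosolic RNA of a pancreatic cancer cell line treated with an mTOR kinase inhibitor. The genes are GINS1, GINS2, GINS3, GINS4, CDC45, PCNA, RFC2, RFC3, RFC4 and RFC5, taken by name as a list of the helicase partners, the clamp and the small loader subunits, and they make up 10 of the 19775 genes measured. The 4 groups, of 4 arrays each, were polysome RNA of PP242-treated cells, polysome RNA of vehicle-treated cells, cytosolic RNA of PP242-treated cells and cytosolic RNA of vehicle-treated cells. PP242, which blocks the kinase of both mTOR complexes, was given at 2.5 µM for 12 hours, and the vehicle was DMSO. All cells were MIA PaCa-2, an established line from a pancreatic carcinoma, with no other genotype or agent named in the labels. Polysome RNA came from pooled sucrose gradient fractions (10% to 50%) in which mRNAs carried more than 3 ribosomes, and cytosolic RNA was taken before the gradient. The labels do not say that the 4 replicates of a group were separate cultures, so p-values measure the spread between these arrays, which may be technical.

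The GINS complex and CDC45 join the MCM2 to MCM7 ring at a licensed origin, and together they form the helicase that unwinds DNA ahead of the polymerases. PCNA is the ring-shaped sliding clamp that holds DNA polymerases and many repair proteins on DNA. RFC2, RFC3, RFC4 and RFC5 are the small subunits of the clamp loader. With the large subunit RFC1 they open the PCNA ring and close it around a primer end, and with other large subunits they load or unload clamps elsewhere. In dividing cells the transcripts of these genes are typical of the G1 to S transition, where many of them are E2F targets.

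Values are log2 intensities after RMA, the array summary method the submitters name, and 1 unit is a doubling. Each gene is read by 1 probe set, the one with the highest mean over the 16 arrays. Levels of the 10 genes are compared only between arrays for the same probe set, and the marker levels below are a rough check of the cell type. Arrays of 1 group correlated over all genes at 0.979 to 0.998, and the cytosolic PP242 group had the widest spread, with a median SD per gene of 0.245 against 0.122 in the cytosolic vehicle group. Array weights estimated from the data were lowest for cytosolic PP242 arrays 2 and 4, at 0.36 and 0.251. KRT8, KRT18, KRT19 and VIM, filament genes of the line, had group means between 9.29 and 14.31, and their summed level on single arrays was 53.58 to 53.68 in polysome PP242, 51.32 to 52.19 in polysome vehicle, 50.26 to 52.71 in cytosolic PP242 and 47.34 to 48.17 in cytosolic vehicle RNA. Of the 6 measured acinar and endocrine pancreas markers and the 4 measured leukocyte markers, 0 were above the median gene in any group, and of 4 endothelial markers at most 1 was. Of 6 fibroblast markers 3 or 4 were above it, led by COL1A2 at 10.96 to 12.21, and their summed level was 38.52 to 39.67 in polysome PP242, 40.46 to 41.77 in polysome vehicle, 37.97 to 39.17 in cytosolic PP242 and 39.75 to 41.00 in cytosolic vehicle RNA. The part of these markers in the results that follow was not tested.

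All 10 genes were lower in PP242-treated cells in both RNA pools. On polysomes the differences lay between -2.33 for GINS2 and -0.89 for GINS4 on the log2 scale, with a median of -1.79 against -0.005 over all genes. In cytosolic RNA they lay between -2.47 for PCNA and -0.64 for GINS4, with a median of -1.58 against 0.04 over all genes. By limma, fitted across all genes with a Benjamini-Hochberg adjusted p under 0.05 as the threshold, 10 of 10 were called lower on polysomes, where 6.55% of all genes were, and 10 of 10 in the cytosol, where 7.91% were. Called lower in both pools were 10 of 10, against 4.28% of all genes. For each of the 10, all 4 PP242 arrays lay below all 4 vehicle arrays in each pool, which held for 9.86% of all genes on polysomes and for 8.34% in the cytosol. The 10 genes were chosen with earlier results of these data known, so these counts describe them and are no independent test. In bulk RNA, fewer cells in S phase and less of these mRNAs per cell cannot be told apart.

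**Figure D1:**
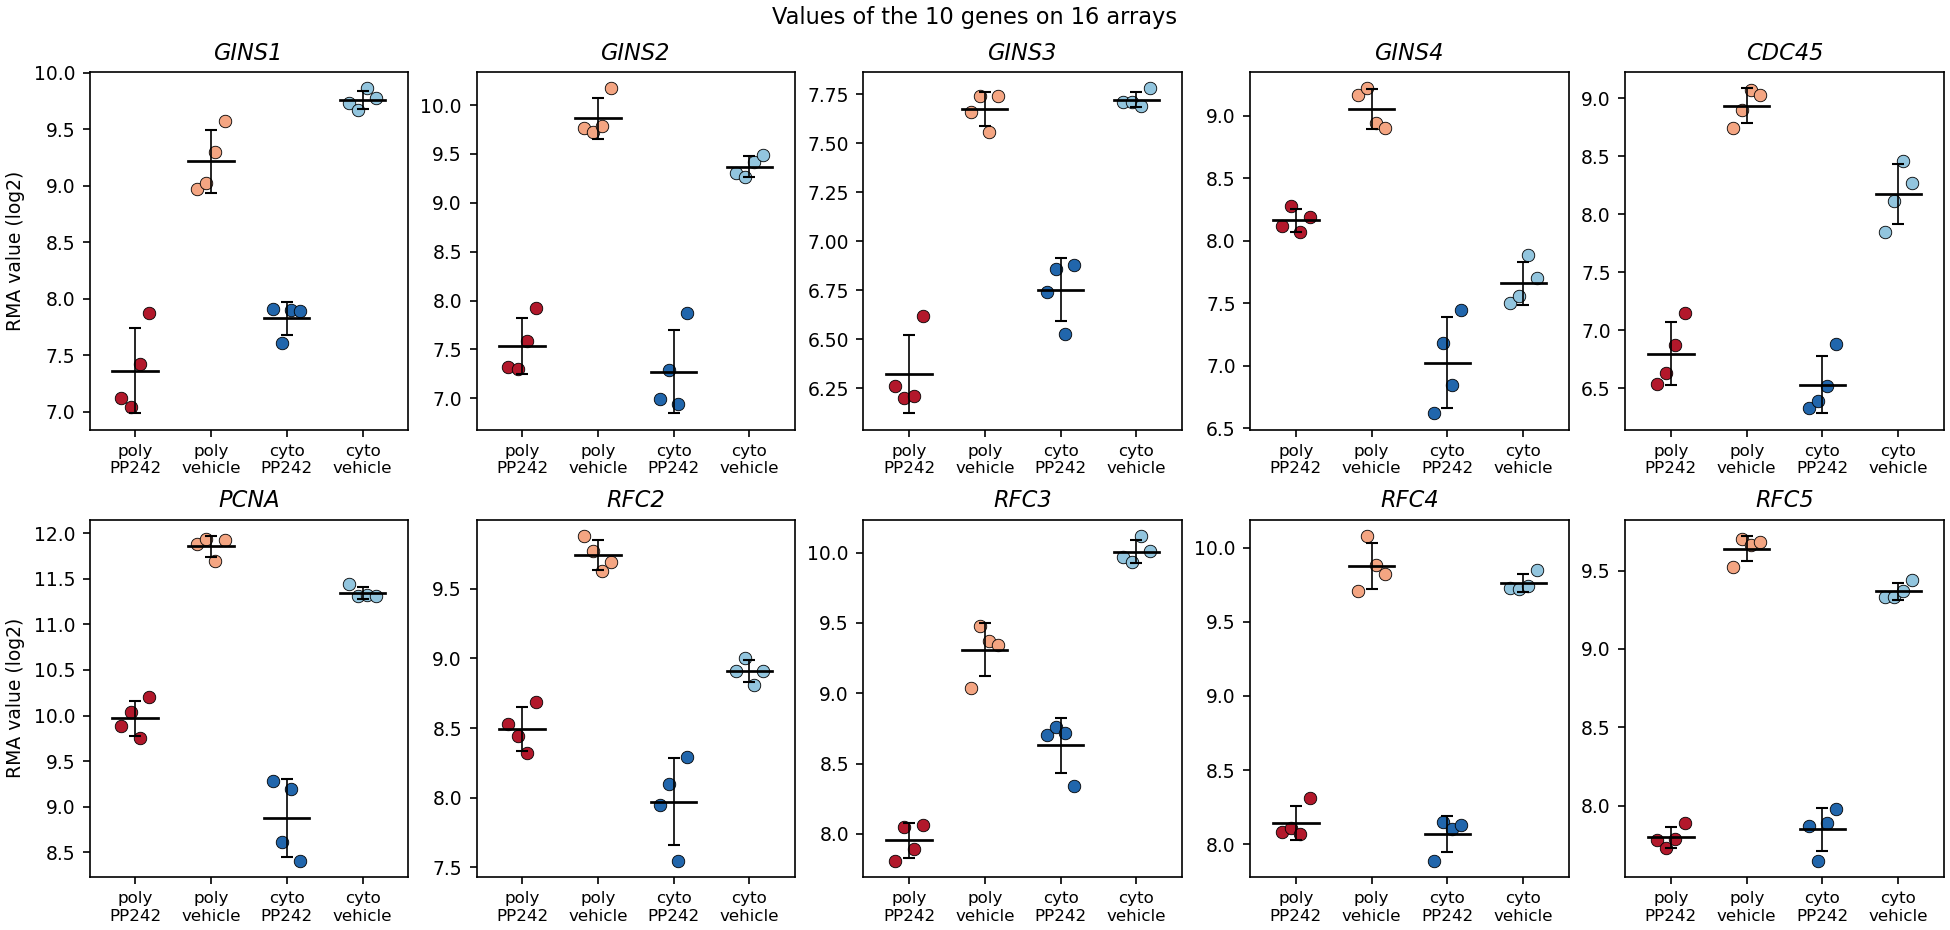
Log2 RMA values (y axis, a scale of its own for each gene) of the 10 genes on the 16 arrays, by group on the x axis (poly: polysome RNA; cyto: cytosolic RNA). Points are arrays, horizontal bars are means and vertical bars are SD (n = 4). In every panel the 4 PP242 points of a pool lie below its 4 vehicle points, and PCNA shows a pair of low arrays in cytosolic PP242 RNA at 8.41 and 8.61.

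Since the 10 genes moved together, their promoters were searched for short words. The RefSeq promoter table (GRCh38.p14, 250 bases before to 50 bases after a start site) held 9 of the 10, all but GINS4. E2F words were taken as TTTCCCGC or TTTGGCGC or TTTCGCGC or TTTGCCGC or TTCCCGCC on either strand, and TTTCCCGC and TTCCCGCC can overlap in 1 run of bases. At least 1 of them was present for 7 of the 9 genes, GINS1, GINS2, GINS3, PCNA, RFC2, RFC3 and RFC4, against 6.7% of the 27305 genes in the table. The cell cycle homology words TTTGAA and TTCGAA were present for 0 of the 9 genes, against 19.5% of genes in the table. The word CCAAT was present for 5 of the 9, CDC45, GINS1, GINS2, PCNA and RFC5, against 39.7%. A match is a run of letters in this window and not a measured binding site. Shown for the genes that hold a complete E2F word upstream of the start site are the 120 bases that end just before it, with the word in capitals. The stretches are PCNA at chr20:5126623-5126742, minus strand, GINS2 at chr16:85688955-85689074, minus strand, RFC3 at chr13:33818029-33818148, plus strand and RFC4 at chr3:186806483-186806602, minus strand, each written 5′ to 3′ in the direction of the gene.
PCNA: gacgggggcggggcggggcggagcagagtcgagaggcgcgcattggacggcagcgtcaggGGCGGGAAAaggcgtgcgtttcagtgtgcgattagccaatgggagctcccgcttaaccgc
GINS2: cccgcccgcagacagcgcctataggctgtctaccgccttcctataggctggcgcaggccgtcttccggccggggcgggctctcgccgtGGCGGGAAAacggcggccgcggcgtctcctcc
RFC3: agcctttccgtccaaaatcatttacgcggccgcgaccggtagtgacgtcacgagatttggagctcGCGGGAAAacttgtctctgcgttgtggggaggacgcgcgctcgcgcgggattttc
RFC4: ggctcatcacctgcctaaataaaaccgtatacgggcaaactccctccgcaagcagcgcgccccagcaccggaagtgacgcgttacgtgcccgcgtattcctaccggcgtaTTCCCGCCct
In PCNA and GINS2 the capitals are 1 run that holds both TTTCCCGC and TTCCCGCC on the opposite strand. The run begins 60 bases before the start site in PCNA and 32 in GINS2. The RFC3 word begins 55 bases before it, also on the opposite strand, and the RFC4 word 10 bases before it on the strand of the gene. Words of GINS1, GINS3 and RFC2 reach or lie beyond the start site and are not shown.

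The 4 GINS genes encode the subunits Psf1 (GINS1), Psf2 (GINS2), Psf3 (GINS3) and Sld5 (GINS4) of 1 complex, and their differences were of unequal size. GINS2 read 7.32, 7.30, 7.59 and 7.92 on the 4 polysome PP242 arrays, against 9.77, 9.72, 9.79 and 10.17 on the polysome vehicle arrays. In cytosolic RNA it read 6.99, 7.29, 6.94 and 7.87 with PP242 and 9.31, 9.26, 9.42 and 9.49 with vehicle. Replicate 4 was the highest array of each of the 4 groups, and the PP242 and vehicle arrays were more than 1 unit apart at their closest. GINS2 fell by 2.33 ± 0.18 (SE) on the log2 scale on polysomes, a 5.03-fold lower level (limma adjusted p = 7.76e-08), and by 2.10 ± 0.18 in the cytosol (4.28-fold, limma adjusted p = 2.81e-07). With the mean of its 3 probe sets in place of the brightest the differences were -0.89 and -0.96, still called lower, and GINS2 was then no longer the gene with the largest polysome difference.

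GINS1 read 7.12, 7.04, 7.42 and 7.87 in polysome PP242 RNA, against 8.97, 9.02, 9.30 and 9.57 in polysome vehicle RNA. Its cytosolic values were 7.91, 7.61, 7.90 and 7.89 with PP242 and 9.73, 9.67, 9.86 and 9.78 with vehicle. The polysome arrays of both treatments spread more widely than the cytosolic ones (SD 0.38 and 0.28 against 0.14 and 0.08), with replicates 3 and 4 above 1 and 2 in both. GINS1 fell by 1.85 ± 0.17 on the log2 scale on polysomes (3.61-fold, limma adjusted p = 3.81e-07), and its cytosolic difference was -1.93 ± 0.17 (3.82-fold lower, limma adjusted p = 2.38e-07).

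GINS3 averaged 6.32 ± 0.20 in polysome PP242 RNA and 7.67 ± 0.09 in polysome vehicle RNA (SD, n = 4 each), and 6.75 ± 0.16 in cytosolic PP242 RNA against 7.72 ± 0.04 in cytosolic vehicle RNA. It fell by 1.35 ± 0.12 on polysomes and by 0.97 ± 0.12 in the cytosol on the log2 scale (limma adjusted p = 2.30e-07 and 1.08e-05). GINS4 had the smallest differences of the 10 in both pools. On polysomes it read 8.12, 8.28, 8.07 and 8.19 with PP242 and 9.17, 9.22, 8.94 and 8.90 with vehicle. Its cytosolic arrays read 6.62, 7.18, 6.85 and 7.45 with PP242 and 7.50, 7.56, 7.89 and 7.70 with vehicle, so the highest PP242 array and the lowest vehicle array were only 0.05 apart. GINS4 fell by 0.89 ± 0.15 on polysomes (1.86-fold, limma adjusted p = 0.000469) and by 0.64 ± 0.15 in the cytosol (1.56-fold, limma adjusted p = 0.00714). The cytosolic call was lost without replicate 3 (-0.50, limma adjusted p = 0.0668).

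CDC45, the protein that joins GINS and the MCM ring, read 6.54, 6.63, 6.87 and 7.15 in polysome PP242 RNA, against 8.74, 8.90, 9.07 and 9.03 in polysome vehicle RNA. In cytosolic RNA its values were 6.33, 6.39, 6.52 and 6.88 with PP242 and 7.85, 8.11, 8.46 and 8.27 with vehicle. The order of the groups for CDC45 was polysome vehicle, then cytosolic vehicle, then both PP242 groups, whose arrays overlapped. It fell by 2.14 ± 0.16 on polysomes on the log2 scale (4.40-fold, limma adjusted p = 5.07e-08), and its cytosolic difference was -1.64 ± 0.16 (3.12-fold lower, limma adjusted p = 1e-06).

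PCNA, the clamp itself, read 9.88, 10.04, 9.75 and 10.20 in polysome PP242 RNA, against 11.88, 11.94, 11.69 and 11.92 in polysome vehicle RNA. Its cytosolic PP242 arrays read 9.28, 8.61, 9.19 and 8.41, against 11.44, 11.31, 11.32 and 11.31 on the cytosolic vehicle arrays. Cytosolic PP242 arrays 2 and 4 were the low ones, and they are the pair with the lowest array weights. PCNA was the only one of the 10 genes with its cytosolic difference larger than its polysome difference by more than 0.1, at -2.47 ± 0.16 (5.55-fold lower, limma adjusted p = 1.36e-08) and -1.89 ± 0.16 (3.71-fold lower, limma adjusted p = 2.01e-07). Without those 2 arrays the cytosolic difference was -2.11.

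Of the small clamp loader subunits, RFC4 and RFC5 had the larger differences. RFC5 read 7.78, 7.73, 7.79 and 7.89 in polysome PP242 RNA, against 9.52, 9.70, 9.66 and 9.68 in polysome vehicle RNA. Its cytosolic arrays read 7.87, 7.65, 7.89 and 7.98 with PP242 and 9.33, 9.33, 9.37 and 9.44 with vehicle. These are narrow groups, with SDs between 0.05 and 0.14, and the PP242 arrays of the 2 pools overlapped. RFC5 fell by 1.84 ± 0.10 on polysomes (3.59-fold, limma adjusted p = 2.83e-09) and by 1.52 ± 0.10 in the cytosol (2.87-fold, limma adjusted p = 1.36e-08). RFC4 averaged 8.14 ± 0.11 in polysome PP242 RNA and 9.87 ± 0.15 in polysome vehicle RNA, and 8.07 ± 0.12 in cytosolic PP242 RNA against 9.76 ± 0.06 in cytosolic vehicle RNA (SD, n = 4 each). Its differences were -1.73 ± 0.11 on polysomes and -1.69 ± 0.11 in the cytosol (3.32-fold and 3.23-fold lower).

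RFC3 averaged 7.95 ± 0.12 in polysome PP242 RNA and 9.31 ± 0.19 in polysome vehicle RNA, and 8.63 ± 0.19 in cytosolic PP242 RNA against 10.01 ± 0.08 in cytosolic vehicle RNA (SD, n = 4 each). It was lower in both pools, with differences of -1.36 ± 0.12 on polysomes and -1.38 ± 0.12 in the cytosol (limma adjusted p = 4.38e-07 and 3.56e-07). RFC2 read 8.53, 8.44, 8.32 and 8.69 in polysome PP242 RNA, against 9.88, 9.77, 9.63 and 9.69 in polysome vehicle RNA. Cytosolic RFC2 values were 7.95, 8.10, 7.55 and 8.29 with PP242 and 8.91, 9.0, 8.81 and 8.91 with vehicle. Its 4 groups did not overlap at all, and their order was polysome vehicle, cytosolic vehicle, polysome PP242 and cytosolic PP242. RFC2 fell by 1.25 ± 0.14 on polysomes (2.37-fold, limma adjusted p = 3.97e-06) and by 0.94 ± 0.14 in the cytosol (1.91-fold, limma adjusted p = 9.52e-05).

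RFC1, the large subunit that completes the canonical clamp loader, is not among the 10. It averaged 7.24 ± 0.17 in polysome PP242 RNA and 7.83 ± 0.23 in polysome vehicle RNA, and 7.62 ± 0.36 in cytosolic PP242 RNA against 8.06 ± 0.08 in cytosolic vehicle RNA (SD, n = 4 each). It fell by 0.60 ± 0.16 on polysomes (limma adjusted p = 0.0148), and the cytosolic difference of -0.45 ± 0.16 missed the threshold (limma adjusted p = 0.0589). The 95% interval of the polysome difference, -0.93 to -0.27, did not overlap those of RFC2 (-1.53 to -0.96), RFC3, RFC4 or RFC5. In the cytosol the RFC1 interval, -0.78 to -0.12, overlapped that of RFC2 (-1.22 to -0.65) but not those of RFC3, RFC4 or RFC5. The difference between these genes was not tested. A second RFC1 probe set gave -0.70 ± 0.11 on polysomes and -0.99 ± 0.11 in the cytosol, both called lower (limma adjusted p = 0.000299 and 8.30e-06). Its cytosolic value was near the -0.94 of RFC2.

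**Figure D2:**
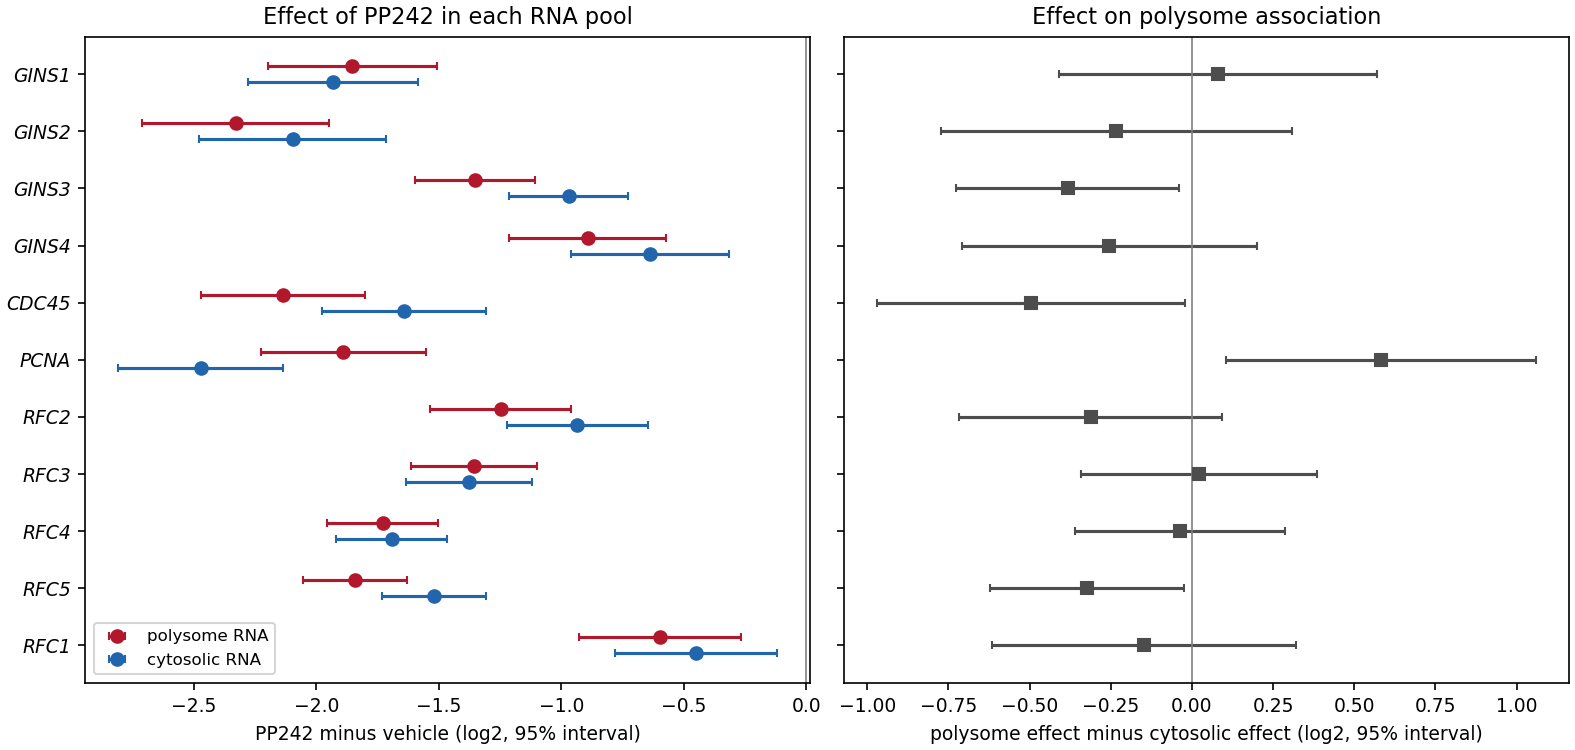
PP242 minus vehicle on the log2 scale (left, x axis) in polysome and cytosolic RNA, and the polysome effect minus the cytosolic effect (right, x axis), for the 10 genes and RFC1 (y axis). Points are limma estimates and bars are 95% intervals (n = 4 arrays per group). On the left all intervals lie below 0, and on the right those of GINS3, CDC45 and RFC5 lie just below 0 and that of PCNA above it, before any adjustment for the number of genes.

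Polysome association was taken as the polysome difference minus the cytosolic difference. It asks whether an mRNA changed on polysomes beyond its change in amount, relative to the other mRNAs of each pool. After normalization, a change shared by most mRNAs of a pool does not show in these values. None of the 10 genes was called for polysome association by limma. The share over all 19775 genes was 0%, with 0.400 as the smallest limma adjusted p of any gene. At an unadjusted p under 0.05, limma counted 4 of the 10, against 1750 of all genes (8.85%). CDC45 had the largest negative value, -0.50 ± 0.23 (limma adjusted p = 0.558). Of the 4, GINS3 (-0.38 ± 0.16) and RFC5 (-0.32 ± 0.14) also had a negative value. PCNA had a positive one of 0.58 ± 0.23, and all 4 had a limma adjusted p of 0.558. The remaining 6 ran from -0.31 ± 0.19 for RFC2 to 0.08 ± 0.23 for GINS1. For RFC4 the 95% interval was -0.36 to 0.28 and for RFC3 -0.34 to 0.39. For PCNA the value was 0.22 ± 0.16 without cytosolic PP242 arrays 2 and 4.

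The same question was put with a regression of the 8 polysome values on the 8 cytosolic values with treatment as a term. Its p-values come from the t statistic of the treatment term, with the variance moderated by limma. It called 686 genes, 315 higher and 371 lower, the latter 1.88% of all genes. Of the 10 it called 2 lower, GINS4 (-0.90 ± 0.18, regression adjusted p = 0.0197) and PCNA (-2.90 ± 0.44, regression adjusted p = 0.00772). For PCNA this has the opposite sign to the difference of the effects. The fitted slope of polysome on cytosolic values was -0.41 for PCNA and -0.01 for GINS4, where a gene whose pools vary together between arrays has a positive slope, and 1.53 for GINS1. Fitting the polysome minus cytosolic difference of each replicate number called 0 genes.

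**Figure D3:**
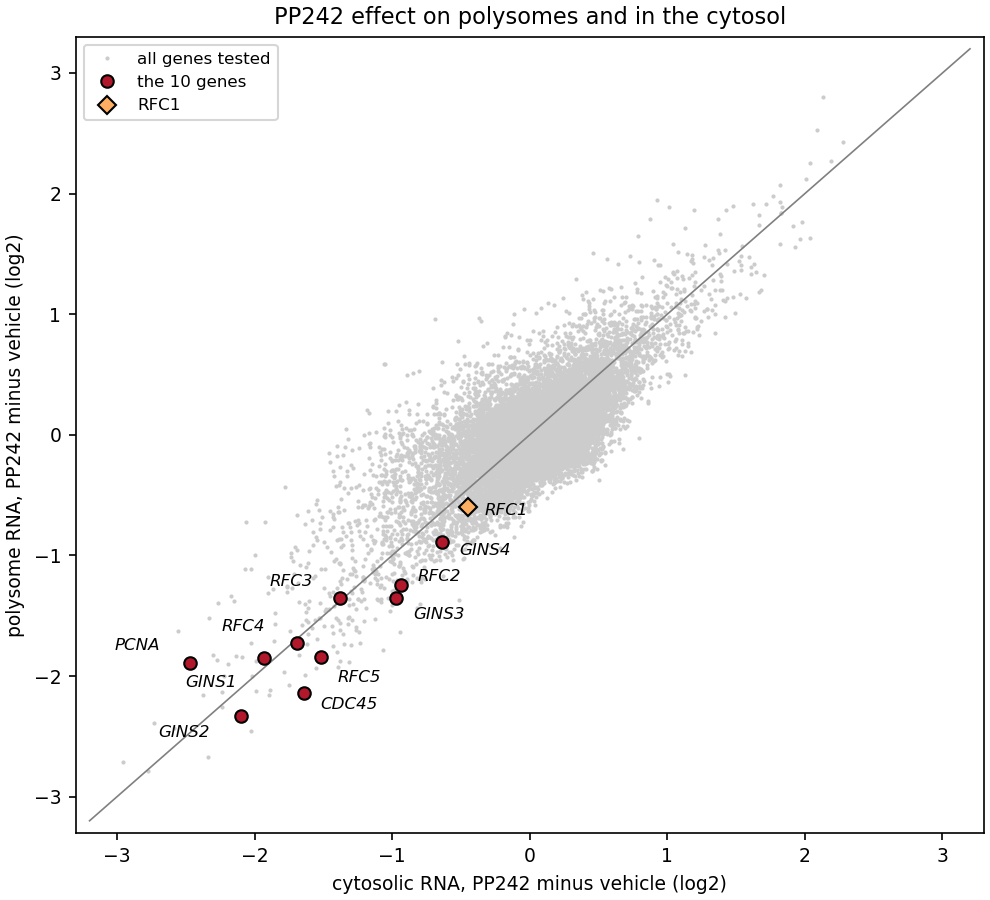
PP242 minus vehicle on the log2 scale in polysome RNA (y axis) against cytosolic RNA (x axis) for all 19775 genes (grey), the 10 genes (red) and RFC1 (orange). The line marks equal effects. The 10 genes lie at the low end of both axes, GINS2 lowest on polysomes at -2.33 and PCNA lowest in the cytosol at -2.47, and of the 10 genes PCNA lies farthest above the line.

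Polysome over cytosolic values describe how a gene's signal is divided between the pools, relative to the other mRNAs of each pool. Among PP242-treated cells GINS4 (1.14 ± 0.15), PCNA (1.09 ± 0.16) and RFC2 (0.52 ± 0.14) were called higher in polysome RNA by limma, 3 of 10 against 16.1% of all genes. GINS1 (-0.47 ± 0.17), GINS3 (-0.43 ± 0.12) and RFC3 (-0.68 ± 0.12) were called lower, 3 of 10 against 38.1%. The GINS1 call was lost without replicate 1, 2 or 3 (limma adjusted p = 0.157, 0.0769 and 0.0768) and the GINS3 call without replicate 2 (0.0614). The second GINS3 probe set was called higher, at 0.47 ± 0.11 (limma adjusted p = 0.0019), opposite to the one used. With the mean of all probe sets GINS4 stood at 0.31 and was not called (limma adjusted p = 0.141), and its other 3 probe sets stood at 0.10, -0.22 and 0.21, none called. CDC45 stood at 0.27 and was not called, but it was with the replicate number as a block (limma adjusted p = 0.0342). GINS2, RFC4 and RFC5 stood at 0.26, 0.07 and -0.05 and were not called either. The RFC5 probe set with a mean of 7.19 was called lower, at -0.497 ± 0.143 (limma adjusted p = 0.0071). That with a mean of 6.3 stood at -0.365 and was not called (limma adjusted p = 0.0694). With the mean of all probe sets RFC5 was called lower (-0.304, limma adjusted p = 0.00528). Without cytosolic PP242 arrays 2 and 4 GINS2 was called higher (0.57, limma adjusted p = 0.00963) and the GINS3 call was lost (-0.31, limma adjusted p = 0.0507).

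In vehicle-treated cells 6 of the 10 were called higher in polysome RNA, against 16.8% of all genes. They were GINS4 (1.40 ± 0.15), RFC2 (0.83 ± 0.14), CDC45 (0.76 ± 0.16), PCNA (0.51 ± 0.16), GINS2 (0.49 ± 0.18) and RFC5 (0.27 ± 0.10). The RFC5 call was lost without any 1 of the 4 replicates (limma adjusted p between 0.0675 and 0.120), the GINS2 call without replicate 1, 2 or 3 (0.0810, 0.0920 and 0.0549) and the PCNA call without replicate 2 (0.0705). RFC3 (-0.70 ± 0.12) and GINS1 (-0.55 ± 0.17) were called lower, 2 of 10 against 35.9%, and GINS3 (-0.05 ± 0.12) and RFC4 (0.11 ± 0.11) were not called. The GINS1 call was lost without replicate 1 (-0.47, limma adjusted p = 0.0683). An RFC5 probe set with a mean of 6.3 was called lower, at -1.25 ± 0.16 (limma adjusted p = 7.42e-06). The second GINS3 probe set was called higher, at 0.285 ± 0.111 (limma adjusted p = 0.0406). The GINS4 probe sets not used stood at 0.155, 0.198 and 0.115, none called. With the mean of all probe sets GINS2 stood at 0.058 and was not called (limma adjusted p = 0.600). The second RFC2 probe set was called higher (0.51) and the second brightest of RFC3 lower (-0.725), like those used. By the probe sets used, genes of 1 complex lay on both sides: GINS4 and GINS1, and RFC2 and RFC3. These values depend on the scale. The pools look normalized separately, with array medians of 4.57 to 4.63 in polysome and 5.0 to 5.05 in cytosolic RNA, and the median gene stood at -0.18 in PP242 and -0.16 in vehicle cells. After quantile normalization of all 16 arrays together the median gene stood at -0.001 and 0.013. The split of all genes in PP242 cells became 4508 higher and 4669 lower, in place of 3175 and 7527, and in vehicle cells 4623 and 4293 in place of 3328 and 7103. In PP242 cells CDC45 was then called higher too (0.49, limma adjusted p = 0.0203) and GINS3 lost its call (-0.2, limma adjusted p = 0.144). GINS2, PCNA and RFC5 lost their calls in vehicle cells (0.24, 0.09 and 0.04) and GINS3 and RFC4 changed sign (0.006 and -0.16), while GINS4, CDC45 and RFC2 stayed called higher and GINS1 and RFC3 lower.

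Of the 10 genes 6 have further probe sets on the array, 11 in all, and GINS1, CDC45, PCNA and RFC4 have only 1. Of the 11, 6 were called lower on polysomes and 7 in the cytosol, and 0 were called higher in either pool by limma. Over all genes 6.55% and 7.91% were called lower, and the share over all probe sets was not computed. The 4 of the 11 with a mean above 6.5 were called lower in both pools. This cut lies just above an RFC5 and a GINS2 probe set (means 6.3 and 6.12), which were not called on polysomes. The second probe set of RFC2 gave -1.43 ± 0.12 on polysomes and -1.21 ± 0.12 in the cytosol, and the second brightest of RFC3 gave -1.83 ± 0.18 and -1.47 ± 0.18. The second GINS3 probe set gave -1.37 ± 0.11 on polysomes and -1.54 ± 0.11 in the cytosol, so its association value was 0.18 ± 0.16, of opposite sign to the -0.38 of the probe set used. Of RFC5 the probe set with a mean of 7.19 gave -1.73 ± 0.14 on polysomes and -1.03 ± 0.14 in the cytosol, and that with a mean of 6.3 gave -0.23 ± 0.16, not called, on polysomes and -1.11 ± 0.16 in the cytosol. Their association values were -0.70 ± 0.20 and 0.89 ± 0.23, on either side of the -0.32 of the probe set used. A GINS4 probe set with a mean of 5.92 was called lower in both pools (-0.68 and -0.63) but it stood at 0.15 for polysome over cytosolic RNA in vehicle cells, in place of 1.40. A GINS2 probe set with a mean of 6.12 was called in neither pool (0.11 and -0.24).

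**Figure D4:**
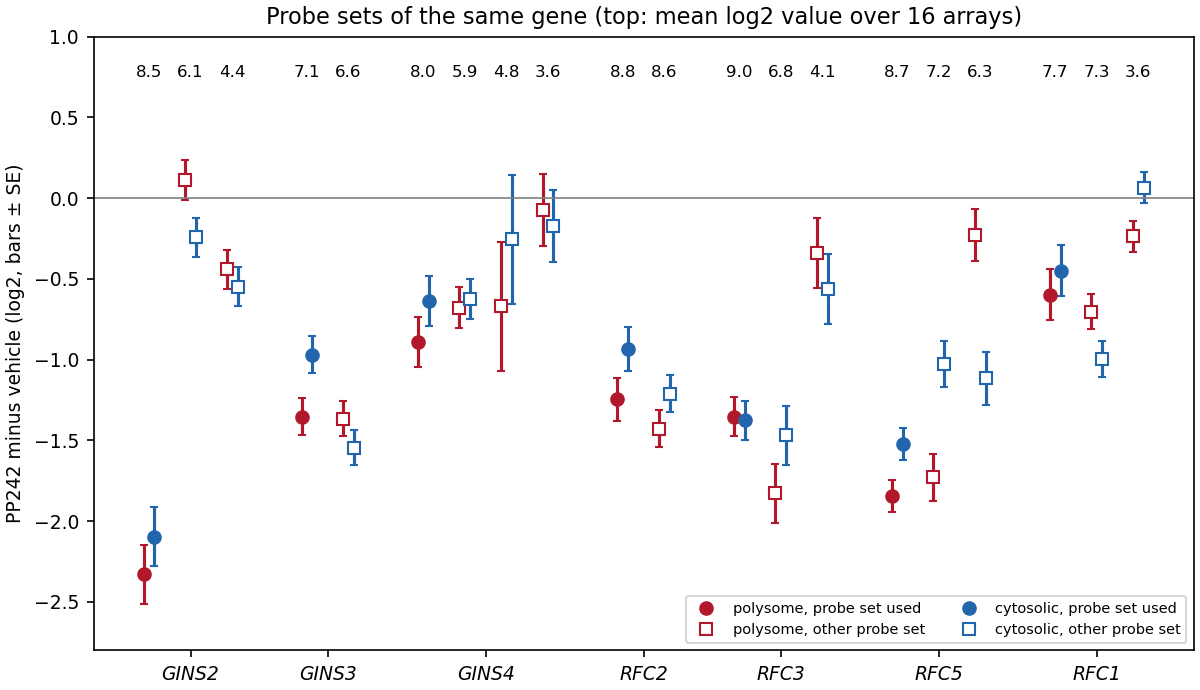
PP242 minus vehicle on the log2 scale (y axis) for each probe set of the 6 genes with more than 1 and of RFC1 (x axis), in polysome and cytosolic RNA. Filled circles are the probe sets used, open squares the others, bars are SE, and the numbers on top are mean log2 values over 16 arrays. Probe sets with a mean above 6.5 lie below 0 in both pools. Several near 0 have a lower mean, among them on polysomes those of RFC5 at 6.3 and GINS2 at 6.12.

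Within groups, the number of the 10 genes above their group mean differed between arrays. On the polysome PP242 array of replicate 4 all 10 lay above their group mean, by 0.24 on average, while the median of all genes there was 0.01. On the cytosolic PP242 array of replicate 4, 8 of 10 did, by 0.13 on average, against 0.04 for the median of all genes, and the 2 below were PCNA (8.41) and RFC3 (8.34). The polysome vehicle array of replicate 4 had 7 of 10 above, by 0.07 on average, and the cytosolic vehicle array of replicate 4 had 9 of 10, by 0.05. On the other 12 arrays between 1 and 7 of the 10 lay above, with an even split of 5 and 5 on the polysome vehicle and the cytosolic PP242 array of replicate 3. Among the 10 genes, the lowest PP242 effect of a single replicate number on polysomes was -2.45 for GINS2 in number 1 and the highest was -0.71 for GINS4 in number 4.

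After centring each gene within each pool, the Pearson correlation of a gene with the mean of the other 9 over the 16 arrays was 0.893 for GINS4, 0.946 for PCNA, 0.956 for RFC2 and 0.973 to 0.993 for the other 7. The arrays share the treatment contrast, so these correlations are descriptions without a test. Outside the 10, the genes closest to their mean by the same measure were CDK2 (0.997), MELK (0.994), NCAPH (0.993), ZWINT (0.993) and POLE2 (0.992). CDK2 is the kinase of cyclins E and A, MELK a kinase of dividing cells, NCAPH a condensin subunit, ZWINT a kinetochore protein and POLE2 a subunit of DNA polymerase epsilon. CDK2 had a difference of -1.82 on polysomes and -1.68 in the cytosol.

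The other genes of the fork were read from 7 lists of 73 genes. On polysomes 51 of the 73 were called lower, 3 higher and 19 neither, with a median of -0.89. In the cytosol these counts were 52, 3 and 18, with a median of -0.94. Beside these and the lists that follow, 6.55% of all genes were called lower on polysomes and 7.91% in the cytosol. The lists too were chosen with earlier results of these data known, so their counts are descriptions and no independent test. The medians over all genes were -0.005 and 0.04. None of the 73 was called for polysome association by limma. The MCM ring, which GINS and CDC45 activate, had 6 of 6 lower in both pools, with medians of -1.50 on polysomes and -1.24 in the cytosol. MCM4 stood at -1.93 ± 0.15 on polysomes, MCM3 at -1.72 ± 0.20 and MCM5 at -1.64 ± 0.32. Of 18 origin licensing and helicase activation genes, 12 were lower on polysomes and 14 in the cytosol. They include MCM10, which helps the assembled helicase start (-2.79 ± 0.28 on polysomes), the helicase loader CDC6 (-2.67 ± 0.19) and the origin binder ORC1 (-2.0 ± 0.20).

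All 5 fork scaffold genes were lower in both pools, among them CLSPN, an adaptor of the replication checkpoint (-1.27 ± 0.14), WDHD1, which ties polymerase alpha to the helicase (-1.23 ± 0.20), and TIMELESS (-1.16 ± 0.12). Among 12 polymerase and primase subunits 9 were lower on polysomes and 8 in the cytosol, led on polysomes by POLE2 (-2.13 ± 0.13), POLA2 (-1.88 ± 0.21) and PRIM1 (-1.43 ± 0.11). One was higher in both pools, POLD4, a small subunit of polymerase delta (0.95 ± 0.20 on polysomes and 0.99 ± 0.20 in the cytosol), named after its values were seen. Among the 22 proteins that work on PCNA 14 were lower and 2 higher in each pool. The flap endonuclease FEN1 stood at -2.16 ± 0.22 on polysomes, DTL, which directs a ubiquitin ligase to proteins bound to PCNA, at -2.13 ± 0.22, and CHAF1A, a histone chaperone recruited by PCNA, at -1.65 ± 0.15. The 2 higher genes, likewise named after their values were seen, were CDKN1A, which encodes the CDK inhibitor p21 that binds PCNA (0.58 ± 0.16 on polysomes and 0.77 ± 0.16 in the cytosol), and WDR48, a partner of the PCNA deubiquitinase USP1 (0.44 ± 0.12 and 0.57 ± 0.12).

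The alternative clamp loaders, which share RFC2 to RFC5, did not move as one. DSCC1, of the loader that acts in sister chromatid cohesion, fell by 1.27 ± 0.13 on polysomes and by 1.40 ± 0.13 in the cytosol, and ATAD5, the large subunit of the PCNA unloader, by 1.09 ± 0.16 and 0.85 ± 0.16 (log2). CHTF18 and CHTF8, the other particular subunits of the cohesion loader, stood at -0.11 ± 0.19 and 0.07 ± 0.13 on polysomes and at -0.01 ± 0.19 and 0.18 ± 0.13 in the cytosol and were not called. RAD17, the large subunit that loads the checkpoint clamp, stood at 0.41 ± 0.22 on polysomes and -0.65 ± 0.22 in the cytosol and was called in neither (limma adjusted p = 0.281 and 0.0515). With RFC1, 3 of these 6 were lower on polysomes and 2 in the cytosol, with medians of -0.35 and -0.55. The checkpoint clamp list of 4 genes holds RHNO1 beside the clamp genes RAD9A, HUS1 and RAD1. Of this list, RAD1 (-0.82 ± 0.12) and HUS1 (-0.61 ± 0.11) were lower on polysomes, and 3 of 4 were lower in the cytosol.

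**Figure D5:**
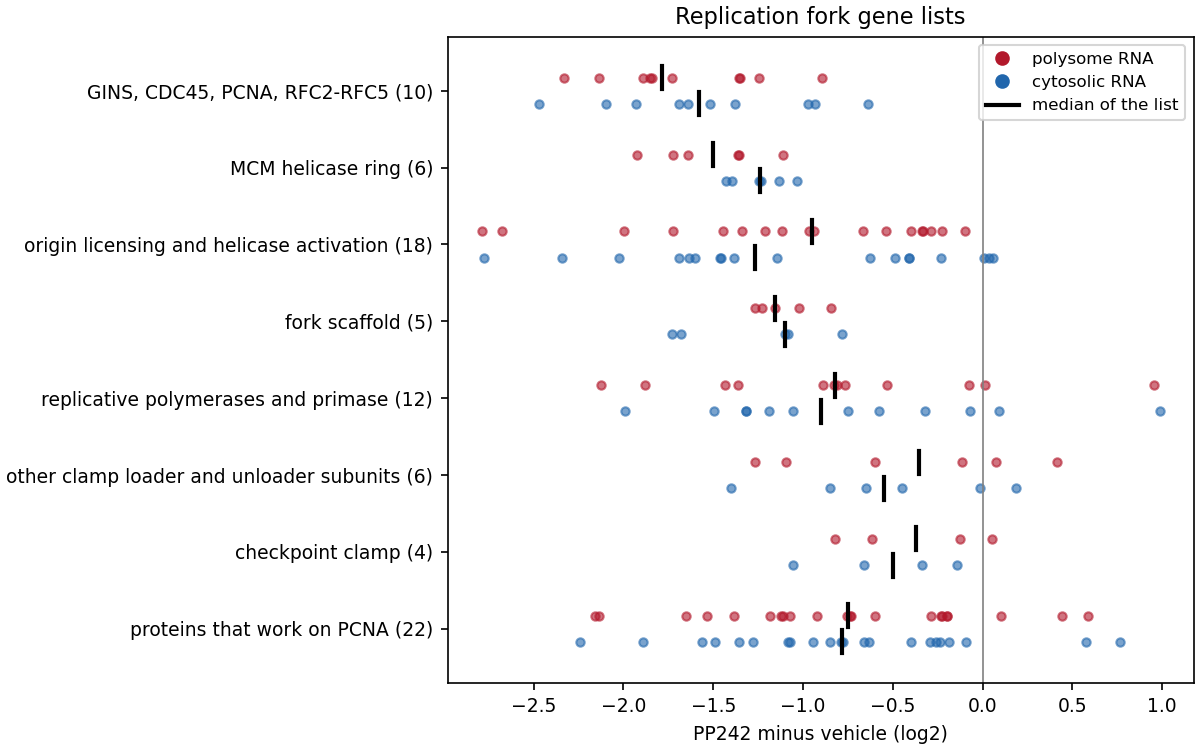
PP242 minus vehicle on the log2 scale (x axis) for the 10 genes and the 7 further lists of fork genes (y axis, number of genes in brackets). Points are genes, in polysome RNA (red) and cytosolic RNA (blue), and black bars are list medians. The 10 genes have medians of -1.79 and -1.58, the MCM ring -1.50 and -1.24, and the other clamp loader subunits -0.35 and -0.55.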

How the data were processed

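RNA was measured on 16 Affymetrix 3-prime arrays. The values deposited by the authors are log2 intensities, between 1.65 and 14.61 with 0 missing, summarized by RMA per the submitters' processing notes. The sources used here give neither an RMA version nor whether the pools were normalized together. No depth applies to arrays, whose number limits the precision.

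Of 54613 probe sets 41091 list 1 gene in the array's annotation table, 1801 list several and 11721 have no gene symbol in it. Of 19775 genes 10523 have several, and the one with the highest mean over the arrays was used. limma 3.58.1 in R 4.3.3 fitted 1 mean per group over all 16 arrays, with eBayes and an intensity trend. P-values are two-sided and adjusted by Benjamini-Hochberg over all genes, with a threshold of 0.05. Errors after ± are SE of the contrast unless SD is named. The steps were tested on simulated data.

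The members and lists were chosen with earlier results of these data known. Named are the 10 genes, RFC1, up to 3 genes per list by size of polysome change among those called, all further clamp loader subunits, and the 5 genes most like the mean of the 10. Arrays with the same replicate number deviated together in 16 of 16 pairs of compared groups (correlations 0.164 to 0.51). Over all 24 pairs the lowest correlation was 0.026, and 11 of the 16 arrays correlated best with their own number. The labels do not say what the number stands for, and the main fit did not use it. Blocking on the number changed 1 call among the 10 genes, given beside its value. Alternatives were the block, joint quantile or cyclic loess normalization, no intensity trend, array weights, a filter on dim genes, the mean of all probe sets, subsets of arrays, and a regression on the cytosolic value. Marker lists of the cell line, acinar and endocrine pancreas, fibroblasts, leukocytes and endothelium were read for their levels.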

Additional observations from a re-analysis of the deposited data

Results flagged for a closer look

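In 7 of 40 groups of 4 arrays, over the 10 genes and 4 groups, 1 array stood apart from the other 3 by more than Dixon's critical value. Chance flags about 1 in 20 independent groups, but the 10 genes share arrays and move together, so 7 of 40 cannot be set against it. In polysome PP242 RNA these were GINS3, with 6.62 above the other arrays at 6.2 to 6.26, and RFC4, with 8.31 above 8.07 to 8.11, both in replicate 4. In polysome vehicle RNA GINS2 had 10.17 above 9.72 to 9.79, in replicate 4. In cytosolic PP242 RNA GINS1 had 7.61 below 7.89 to 7.91, in replicate 2, and RFC3 had 8.34 below 8.70 to 8.76, in replicate 4. In cytosolic vehicle RNA PCNA had 11.44 above 11.31 to 11.32, in replicate 1, and RFC4 had 9.85 above 9.72 to 9.74, in replicate 4. Each of these arrays lay on the same side of the other treatment as its group did.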

How the results depend on the processing

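The calls that the 10 genes were lower with PP242 held under nearly all alternatives. Recomputed under 15 alternatives for each of the 10 genes, 149 of 150 polysome values and 146 of 150 cytosolic values kept their direction and side of the threshold. The exceptions kept their direction: GINS4 on polysomes with replicate numbers 3 and 4 only (-0.79, adjusted p = 0.0600), and in the cytosol GINS4 with the mean of all probe sets (-0.42, adjusted p = 0.112), without replicate 3 (-0.50, adjusted p = 0.0668) and with numbers 3 and 4 only (-0.65, adjusted p = 0.118), and RFC2 with numbers 3 and 4 only (-0.94, adjusted p = 0.0558). Without the noisier cytosolic PP242 arrays 2 and 4 all 10 stayed called lower in both pools. Detection calls were not used here, so signal over background limits what the dimmer probe sets can show.

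Counts over all genes moved more. On polysomes 2641 genes were called, 4013 with the replicate block, 1085 with replicate numbers 3 and 4 only, and 1626 to 1889 when 1 replicate was left out, the lowest counts being without replicate 1 (1688) or 2 (1626). In the cytosol 3253 were called, 4929 with the replicate block, 1058 with numbers 3 and 4 only, 1976 without cytosolic PP242 arrays 2 and 4, 2069 when the fit held only the 8 cytosolic arrays, and 1543 to 3319 when 1 replicate was left out, with 1543 without replicate 2 and 1604 without 4. For polysome over cytosolic RNA in PP242 cells 10702 genes were called, 6739 with numbers 3 and 4 only and 5096 with only the 9884 genes above the median level, where fewer genes were tested. In vehicle cells 10431 were called, 6417 with numbers 3 and 4 only and 5589 with the 9884 genes. The cause of the other shifts was not tested.

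Polysome association changed sign most often, in 19 of 160 values, none of them called except PCNA under the regression. Under quantile normalization GINS2 stood at 0.124, RFC4 at 0.217 and the median of the 10 at 0.027, in place of -0.244. RFC4 stood at 0.013 under cyclic loess, 0.012 with array weights, 0.035 without cytosolic PP242 arrays 2 and 4 and 0.02 with numbers 3 and 4 only, and at -0.12 to 0.083 when 1 replicate was left out. RFC3 stood at -0.016 with array weights, -0.038 with the mean of all probe sets, -0.058 without those arrays and -0.11 with numbers 1 and 2 only, and at -0.1 to 0.117 when 1 replicate was left out. GINS1 stood at -0.023 with array weights, GINS2 at 0.078 with the mean of all probe sets and 0.075 without those arrays, and GINS4 at 0.035 without them. The regression on the cytosolic value called 686 genes, 315 higher and 371 lower, and of the 10 it called 2 lower. PCNA stood at -2.902 there and RFC3 at -1.667. The mean of all probe sets called 1 gene, C4orf46 (1.33, adjusted p = 0.00325), named after its value was seen.

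Polysome over cytosolic values depend on scaling and probe sets. In PP242 cells RFC4 stood at -0.055 under cyclic loess and GINS3 at 0.018 with the mean of all probe sets. Of the 10 genes 3 were called lower there, 1 with numbers 3 and 4 only, and 1 to 3 when 1 replicate was left out. Over all 19775 genes these counts were 7527, 4870 and 6214 to 6938. In vehicle cells GINS3 stood at 0.006 and RFC4 at -0.161 under quantile normalization, and at 0.107 and -0.067 under cyclic loess. With the mean of all probe sets GINS3 stood at 0.119, and RFC5 at -0.258 was called lower (adjusted p = 0.0154). Of the 10 genes 6 were called higher in vehicle cells, 3 under quantile normalization and 3 under cyclic loess. With numbers 3 and 4 only 3 were, and 3 to 5 when 1 replicate was left out. Over all 19775 genes 3328 were called higher, 4623 under quantile normalization and 4597 under cyclic loess. With numbers 3 and 4 only 1989 were, and 2678 to 3040 when 1 replicate was left out. Of the 10 genes 2 were called lower, 1 with numbers 3 and 4 only, and 1 to 2 when 1 replicate was left out. Over all genes these counts were 7103, 4428 and 5937 to 6400. The replicate block changed no call of the 10 genes other than that of CDC45 for polysome over cytosolic RNA in PP242 cells (0.268, adjusted p = 0.0342).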
